A study of Mus musculus with 79 samples.

Results

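The genes described here are 8 components of the Hedgehog pathway (Shh, Ptch1, Smo, Hhip, Gli1, Gli2, Gli3 and Boc) and the transcription factor gene Foxa2, chosen by symbol from 23983 symbols, and all 9 were found in each of 3 expression tables. The tables come from a mouse study of neuro-mesodermal progenitors, a caudal population that feeds both spinal cord and paraxial mesoderm and carries T (Brachyury) together with Sox2. All embryos were derived from embryonic stem cells by tetraploid complementation, tissue of several embryos was pooled, and cells were purified by flow cytometry. The first table holds 3 fractions of wild-type (WT) C57BL/6N embryos at Theiler stage (TS) 12, sorted as T+, T+ Sox2+ and Sox2+. The second, called the knockout table, holds T+ cells of WT C57BL/6N embryos and of T2J/2J embryos (T KO, strain label C57BL/6J) at TS12 and TS13, and Tbx6+ cells at TS14 in a pair of C57BL/6J libraries titled WT and KO. The third holds 53 single T+ Sox2+ cells of WT C57BL/6N embryos at TS13, all counted as 1 sample. Every bulk group is 1 library, so no group has a replicate error, and strain and genotype cannot be told apart in the T KO comparison.

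Sonic hedgehog (Shh) is a secreted ligand made by the node, notochord, floor plate and gut endoderm. It binds Patched 1 (Ptch1), which otherwise holds the transducer Smoothened (Smo) inactive. Active Smo lets Gli2 act as an activator and stops the processing of Gli3 to a repressor, and Gli1, Ptch1 and Hhip are themselves transcribed in response. Foxa2, a forkhead factor of the node, floor plate and endoderm, lies in the same axial tissues as Shh. Neural tube and somites beside the notochord are the best known responding tissues.

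Levels are in FPKM, which counts the fragments of a gene per kilobase of its length and per M fragments mapped. Depth, estimated from the steps between low values, was 20.8 to 43.5 M fragments per bulk library. T was at 4.61 FPKM in the T KO library of TS12 against 69.8 in WT, and at 3.32 against 76.4 at TS13. For the Tbx6+ pair, title and source name give opposite genotypes. Tbx6 itself had 10.2 FPKM under the title KO and 31.5 under the title WT, and the titles are used below. The WT library of TS12 stood apart: 1059 of 1495 odorant, vomeronasal and taste receptor genes were above 0 in it, against 26 to 38 in each of the other 8 libraries. Those genes had a median of 0.0952 FPKM there and reached 0.341 FPKM at their highest decile, so values in that range in that library lie within the level of genes for sensory receptors. In 7 of the 9 genes the RefSeq span overlaps another annotated gene (Arhgap9 for Gli1, non-coding or predicted genes for the others), and whether fragments were counted by strand is not given in the sources used here. Fewer cells of a type and less RNA per cell cannot be told apart in bulk libraries.

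RefSeq promoters (250 bases before to 50 after a start, build GRCm38.p6) were matched for 6 of the 9 genes: Foxa2, Ptch1, Smo, Hhip, Gli2 and Gli3. They are shown for Gli2 and Gli3, which stood higher in both T KO libraries, for Foxa2, which stood lower in both, and for Hhip, whose difference had opposite signs at the 2 stages. Capitals mark matches on either strand to ACCACCC, the core of the motif bound by GLI factors, to its variant ACCTCCC, or to AGGTGTG, the core of the motif bound by T-box factors.
Gli2, chr1:119053570-119053869, minus strand: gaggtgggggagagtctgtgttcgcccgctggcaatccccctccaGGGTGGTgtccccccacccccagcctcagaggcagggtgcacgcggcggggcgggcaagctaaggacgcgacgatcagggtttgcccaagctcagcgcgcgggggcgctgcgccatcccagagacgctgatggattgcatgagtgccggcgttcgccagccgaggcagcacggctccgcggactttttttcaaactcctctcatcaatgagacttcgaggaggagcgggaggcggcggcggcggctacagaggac
Gli3, chr13:15463473-15463772, plus strand: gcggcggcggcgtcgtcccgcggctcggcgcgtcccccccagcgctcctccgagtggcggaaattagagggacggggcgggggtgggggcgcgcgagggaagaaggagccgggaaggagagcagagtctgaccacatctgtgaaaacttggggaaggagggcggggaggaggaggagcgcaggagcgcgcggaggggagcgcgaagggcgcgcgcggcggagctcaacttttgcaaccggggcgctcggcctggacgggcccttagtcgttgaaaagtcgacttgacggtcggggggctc
Foxa2, chr2:148045415-148045714, minus strand: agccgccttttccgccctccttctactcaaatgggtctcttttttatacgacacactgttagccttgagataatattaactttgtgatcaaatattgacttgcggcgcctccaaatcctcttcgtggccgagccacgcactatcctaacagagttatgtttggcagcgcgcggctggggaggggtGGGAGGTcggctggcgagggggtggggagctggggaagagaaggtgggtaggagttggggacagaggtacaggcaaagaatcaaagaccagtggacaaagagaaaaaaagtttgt
Hhip, chr8:80057959-80058258, minus strand: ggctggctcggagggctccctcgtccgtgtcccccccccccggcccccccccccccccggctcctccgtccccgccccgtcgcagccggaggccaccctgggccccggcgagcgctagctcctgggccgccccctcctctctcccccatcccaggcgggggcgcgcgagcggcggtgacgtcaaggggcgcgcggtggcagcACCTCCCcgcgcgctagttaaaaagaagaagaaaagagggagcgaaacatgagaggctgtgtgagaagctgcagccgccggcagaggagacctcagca
The Gli2 promoter held 1 match to ACCACCC, on the opposite strand and starting at base 46 of the printed sequence. A match to ACCTCCC started at base 186 of this Foxa2 promoter, 1 of 3 listed for the gene, and another at base 203 of the Hhip promoter. AGGTGTG was in no promoter of these genes. The other Foxa2 promoters and those of Gli3, Ptch1 and Smo held no match to any of these motifs. Of 32851 promoters of the same length, 4.61% held ACCACCC, 7.16% ACCTCCC and 5.84% AGGTGTG. The motifs do not overlap one another in these windows, and a match is a description of letters only.

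Shh, the ligand, was low and differed between libraries by more than any other of the 9 genes. In the sorted fractions, T+ cells had 2.27 FPKM, T+ Sox2+ cells 0.354 and Sox2+ cells 0.0787. These values correspond to 175, 22 and 6 fragments for a transcript of 2667 bases. T+ cells were 28.9-fold above Sox2+ cells (95% counting interval 13.0 to 79.8) and 6.42-fold above T+ Sox2+ cells (4.11 to 10.5). The order was not that of T mRNA, which was at 141 FPKM in T+, 341 in T+ Sox2+ and 192 in Sox2+ cells. Blood and vessel markers also stood apart in T+ cells, where 8 genes summed to 12017 FPKM against 115 and 232. Of 10 node, notochord and floor plate markers, Noto was at 2.42, 0.402 and 0 FPKM in T+, T+ Sox2+ and Sox2+ cells. Ntn1 was at 11.5, 6.75 and 3.20 FPKM. Nog (1.26, 1.99 and 4.68) and Spon1 (0.674, 0.745 and 2.17) had the opposite order. The 10 markers summed to 20.1, 14.2 and 13.1 FPKM. The part of the cells behind these markers in the Shh values was not tested. The counting intervals given here are exact conditional intervals for counting error only. Amplified fragments are not independent molecules, and embryos, sorts and library preparation are not covered.

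In T+ cells of the knockout table, Shh was at 0.666 FPKM in WT and 0.0361 in T KO at TS12, and at 1.67 and 0.321 at TS13. The fragments behind them were 39, 2, 179 and 27. Both T KO libraries lay below both WT libraries. The ratio was 18.5-fold lower in T KO at TS12 (4.78 to 158) and 5.21-fold lower at TS13 (3.46 to 8.12). With the WT library of TS13 in place of the WT library of TS12 as control, T KO at TS12 was 46.4-fold lower (12.7 to 386). Shh was highest in the Tbx6+ library titled WT, at 6.85 FPKM and 625 fragments, against 0.974 FPKM and 113 fragments in the library titled KO, a 7.03-fold difference (5.74 to 8.67).

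Foxa2 was alike in the 3 sorted fractions, at 1.46, 1.54 and 1.64 FPKM in T+, T+ Sox2+ and Sox2+ cells, and all 3 counting intervals of their ratios included 1. In the knockout table it was at 1.55 FPKM in WT and 0.302 in T KO at TS12, and at 1.76 and 0.506 at TS13. The Tbx6+ libraries had 2.32 FPKM when titled WT and 0.489 when titled KO. All 3 knockout libraries therefore lay below all 3 WT libraries for Foxa2, by 5.17-fold at TS12 (2.84 to 10.2), 3.48-fold at TS13 (2.37 to 5.24) and 4.77-fold in the Tbx6+ pair (3.40 to 6.81). Whole fragments (13 to 146) were recovered for Foxa2 in 6 of the 9 libraries, so these ratios are approximate. Foxa2 was below 5 FPKM in every bulk library, and Shh was so in all but the Tbx6+ library titled WT.

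Markers of node, notochord and floor plate differed in both directions. Noto, a notochord homeobox gene, was at 1.31 and 3.10 FPKM in WT T+ cells of TS12 and TS13 and listed at 0 in both T KO libraries. It was at 19.9 FPKM in the Tbx6+ library titled WT and 5.58 in the library titled KO. Ntn1, which encodes the floor plate guidance cue netrin 1, was at 7.80 and 0.349 FPKM in the same pair, at 1.95 and 0.419 in WT and T KO at TS12, and at 2.12 and 1.77 at TS13. Nog, which encodes the BMP antagonist noggin, had the opposite order. It was at 2.16 FPKM in WT and 5.53 in T KO at TS12, 1.58 and 4.61 at TS13, and 2.19 and 3.53 in the Tbx6+ pair. Nog was the 1 gene of the list tested in the limma fit described below (log2 difference 1.08, adjusted p = 0.122). With a minimum of 1 FPKM in that fit, 5 of the list were tested. Nog rose (limma adjusted p = 0.0422) and Noto fell (0.0459), where 63 of 11155 genes rose and 85 fell. Over the 10 markers of that list, the summed level was 10.4 FPKM in WT and 10.1 in T KO at TS12, 10.7 and 9.30 at TS13, and 35.1 and 12.9 in the Tbx6+ libraries titled WT and KO. The 12 gut endoderm markers summed to 114 and 96.9 FPKM at TS12, 100.1 and 69.9 at TS13, and 66.5 and 30.998 in the Tbx6+ pair, in each case WT first. Foxa1, a relative of Foxa2 in endoderm, was at 0.300 and 0.0453 FPKM at TS12, 0.681 and 0.110 at TS13, and 0.302 and 0.0361 in the Tbx6+ pair, and Hnf4a reached at most 0.136 in the 6 libraries. The paraxial mesoderm markers differed more. In the limma fit 6 of 6 tested fell in T KO, beside 66 of 8136 genes. Their median was -2.20 against -0.01 for all genes tested. In the Tbx6+ library titled KO 7 of 7 measured were at least 2-fold lower, where 1.57% of all genes were lower. The 6 axial progenitor markers other than T summed to 471 FPKM in the library titled KO and 110 in the library titled WT. The 8 blood and vessel markers summed to 261 FPKM in the library titled KO against 20.0 in the library titled WT. Most of the 261 FPKM came from the globin genes Hba-x, Hbb-y and Hbb-bh1, at 27.1, 175 and 52.7. Slc4a1 and Alas2 were also higher under the title KO, at 1.09 and 1.21 FPKM. Kdr, Cdh5 and Etv2 went the other way. They were at 2.11, 1.21 and 0.965 FPKM under the title KO and at 12.8, 2.96 and 3.48 under the title WT. The part of these differences in cell makeup in the Shh and Foxa2 values was not tested.

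**Figure D1:**
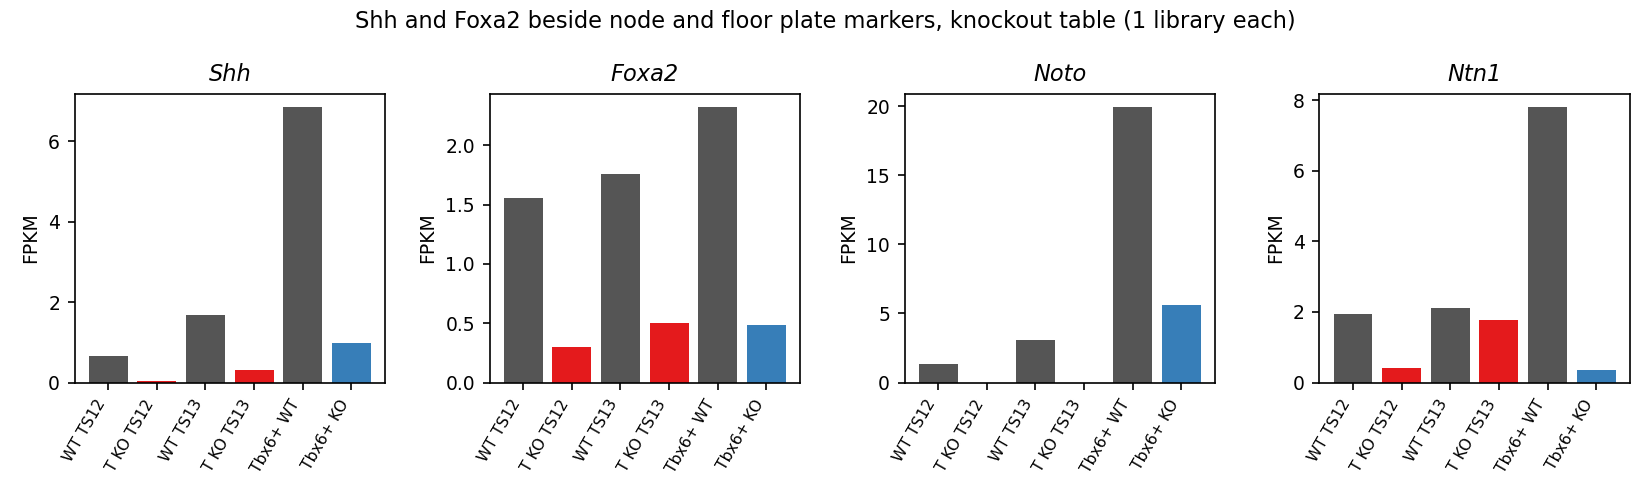
FPKM of Shh, Foxa2, Noto and Ntn1 in the 6 libraries of the knockout table, 1 bar per library (grey WT, red T KO, blue Tbx6+ library titled KO); no error bars, as each bar is 1 library. Shh reached 6.85 FPKM in the Tbx6+ library titled WT and 0.0361 FPKM in T KO cells of TS12, and Noto was listed at 0 in both T KO libraries.

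Smo, the transducer, was the most abundant of the 9 genes in every bulk library and the least variable in the knockout table. Its level was 84.6, 71.2 and 94.1 FPKM in T+, T+ Sox2+ and Sox2+ cells. In the knockout table it was 41.6 and 42.6 FPKM in WT and T KO at TS12, 42.03 and 39.6 at TS13, and 46.1 and 45.5 in the Tbx6+ libraries titled WT and KO. The largest of its 3 knockout differences was -0.08 on the log2(FPKM + 1) scale.

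Ptch1, the receptor and a transcriptional target of the pathway, was at 34.1, 42.1 and 50.7 FPKM in T+, T+ Sox2+ and Sox2+ cells. It was 1.49-fold higher in Sox2+ than in T+ cells (1.43 to 1.55). T KO and WT were close, at 28.5 and 31.1 FPKM at TS12 and 24.1 and 25.4 at TS13. The Tbx6+ library titled KO had 9.12 FPKM against 20.4 in the library titled WT, a 2.234-fold difference (2.104 to 2.37) on 1708 and 3002 fragments. Ptch1 was therefore lower with Shh in the Tbx6+ pair, whereas in the T KO comparison, where Shh was also lower, its log2 differences were -0.12 and -0.07.

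Hhip, a membrane protein that binds Hedgehog ligands and another target of the pathway, was at 0.0757 to 0.326 FPKM in all 9 libraries, on 16 to 77 fragments. Its highest level, 0.326 FPKM in WT cells of TS12, is in the library where sensory receptor genes were detected, and is below the start of the highest decile of those genes. Whether that background contributed was not tested. Hhip was at 0.185 FPKM in T KO cells of TS12, 0.102 in WT and 0.248 in T KO cells of TS13.

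Boc, a co-receptor for Shh, stood at 9.71 FPKM in the Sox2+ fraction, above 4.65 in T+ and 5.64 in T+ Sox2+ cells. In the knockout table it was at 2.202 FPKM in WT and 5.08 in T KO at TS12, and at 2.97 and 9.77 at TS13. Both T KO libraries were above both WT libraries, by 2.31-fold at TS12 (1.96 to 2.73) and 3.29-fold at TS13 (2.97 to 3.64). In the Tbx6+ pair the order was opposite, with 0.628 FPKM in the library titled KO and 1.66 in that titled WT.

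Among the Gli factors, Gli1, a direct readout of Hedgehog activity, was at 4.32, 6.80 and 10.9 FPKM in T+, T+ Sox2+ and Sox2+ cells, in the same order as Ptch1. T KO and WT differed little, with 4.66 and 5.00 FPKM at TS12 and 4.01 and 4.29 at TS13, and both counting intervals of the ratio included 1. Gli1 was at 0.686 and 0.433 FPKM in the Tbx6+ libraries titled WT and KO, below all 4 T+ libraries of the same table.

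Gli2, the main activator, stood at 18.1 FPKM in the Sox2+ fraction, above 5.80 in T+ and 5.45 in T+ Sox2+ cells. T+ Sox2+ cells were 3.32-fold below Sox2+ cells (3.08 to 3.59) and within 1.06-fold of T+ cells (0.972 to 1.16). In the knockout table Gli2 was at 2.91 FPKM in WT and 6.27 in T KO at TS12, and at 2.80 and 7.66 at TS13, which is 2.16-fold higher (1.92 to 2.43) and 2.74-fold higher (2.51 to 2.99). The Tbx6+ libraries titled WT and KO had 1.07 and 0.466 FPKM.

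Gli3, which gives the main repressor, was at 38.3, 31.3 and 46.6 FPKM in T+, T+ Sox2+ and Sox2+ cells. It was at 14.3 FPKM in WT and 24.5 in T KO at TS12, and at 18.2 and 24.5 at TS13. Both T KO libraries were again above both WT libraries, by 1.71-fold (1.63 to 1.80) and 1.34-fold (1.30 to 1.39). The Tbx6+ libraries titled WT and KO had 9.82 and 8.62 FPKM.

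**Figure D2:**
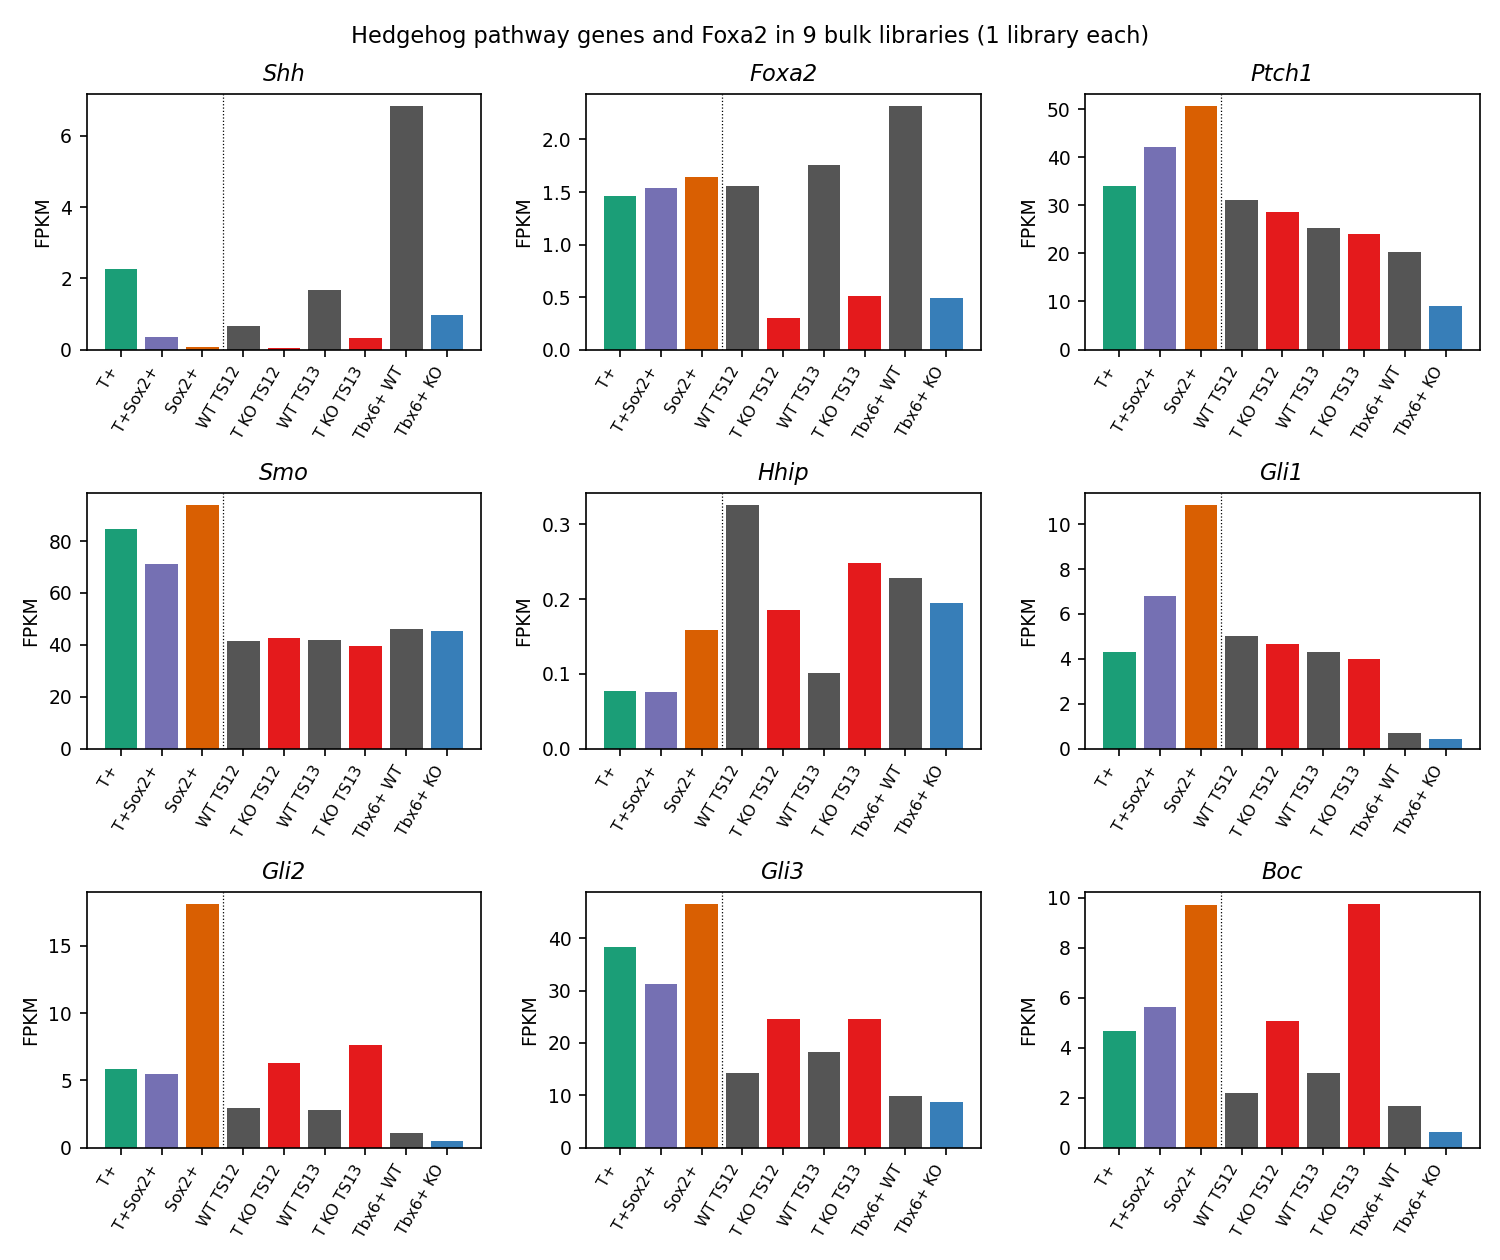
FPKM of the 9 genes in the 9 bulk libraries, 1 bar per library and no error bars; the dotted line parts the sort table (left) from the knockout table (right), which were normalised separately. Grey bars are WT, red bars T KO and the blue bar the Tbx6+ library titled KO; Gli2 and Boc are higher in both T KO libraries (6.27 and 7.66, and 5.08 and 9.77 FPKM) than in the WT libraries of the same stages.

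Counts of these genes past a 2-fold difference were made on log2(FPKM + 1) among genes with 5 FPKM or more in 1 of the 2 libraries compared. With 1 library a group they describe the libraries and carry no test. In T+ Sox2+ against Sox2+ cells, 1 of the 6 measured was lower (Gli2, -1.57), where 1.43% of all genes measured were lower. Between T+ Sox2+ and T+ cells, 0 of 6 were apart (3.18% of all genes). In T+ against Sox2+ cells, 2 of 6 were lower, Gli2 at -1.49 and Gli1 at -1.16, where 3.25% of all genes were lower. In T KO against WT cells, 0 of 6 were apart at TS12 (1.91% of all genes), and 2 of 5 were higher at TS13, Gli2 at 1.19 and Boc at 1.44 (1.1% of all genes were higher). From TS12 to TS13, 0 of 4 were apart in WT cells and 0 of 5 in T KO cells, with 1.34% and 1.46% of all genes. In the Tbx6+ library titled KO, 2 of 4 were lower, Shh at -1.99 and Ptch1 at -1.08, where 1.57% of all genes were lower.

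One test was possible, a limma fit with terms for stage and genotype, made on the T+ cells of the knockout table (4 libraries). What is left over is how far the T KO effect differs from one stage to the other (1 residual degree of freedom per gene), so its p-values do not measure the spread between embryos. Of the 6 genes tested, 0 passed a Benjamini-Hochberg adjusted p of 0.05, while 119 of 8136 genes did (1.46%). At an unadjusted p under 0.05 there were 3 of the 6, beside 1019 of the 8136. The log2 difference of T KO minus WT was 1.18 for Boc (SE 0.254, limma adjusted p = 0.0521), 1.04 for Gli2 (SE 0.241, adjusted p = 0.0669) and 0.57 for Gli3 (SE 0.155, adjusted p = 0.124). Ptch1, Gli1 and Smo were at -0.10, -0.08 and -0.03. Shh, Foxa2 and Hhip were below the minimum of 5 FPKM in that fit and were not tested. Calls of these genes depended on the settings. Boc and Gli2 passed when the minimum was 1 FPKM (2 of 8 members, 0.565% of all genes rose), and with no minimum Boc, Gli2 and Gli3 passed as higher and Shh and Foxa2 as lower (5 of 9, 3.14% of all genes). Under upper-quartile scaling Boc (0.99) and Gli2 (0.83) did not pass, and the other changes are in the closing section.

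Scaling bears on the comparisons with the WT library of TS12. Under upper-quartile scaling the median of all genes in T KO against WT at TS12 moved from 0.03 to -0.46 (log2), and the WT library of TS12 is the one with the additional low genes. Between the WT libraries of TS13 and TS12 it moved from 0.05 to -0.47. Measured from the median of all genes at TS12, Gli2 was at 0.87 as deposited and 0.96 under that scaling, Boc at 0.90 and 1.01, Gli3 at 0.71 and 0.71, Foxa2 at -1.0002 and -0.82 and Shh at -0.71 and -0.43. Smo stayed within 0.01 of the median, and Hhip went from -0.19 to 0.16. Signs at TS13 were the same under both scalings for all 9 genes.

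**Figure D3:**
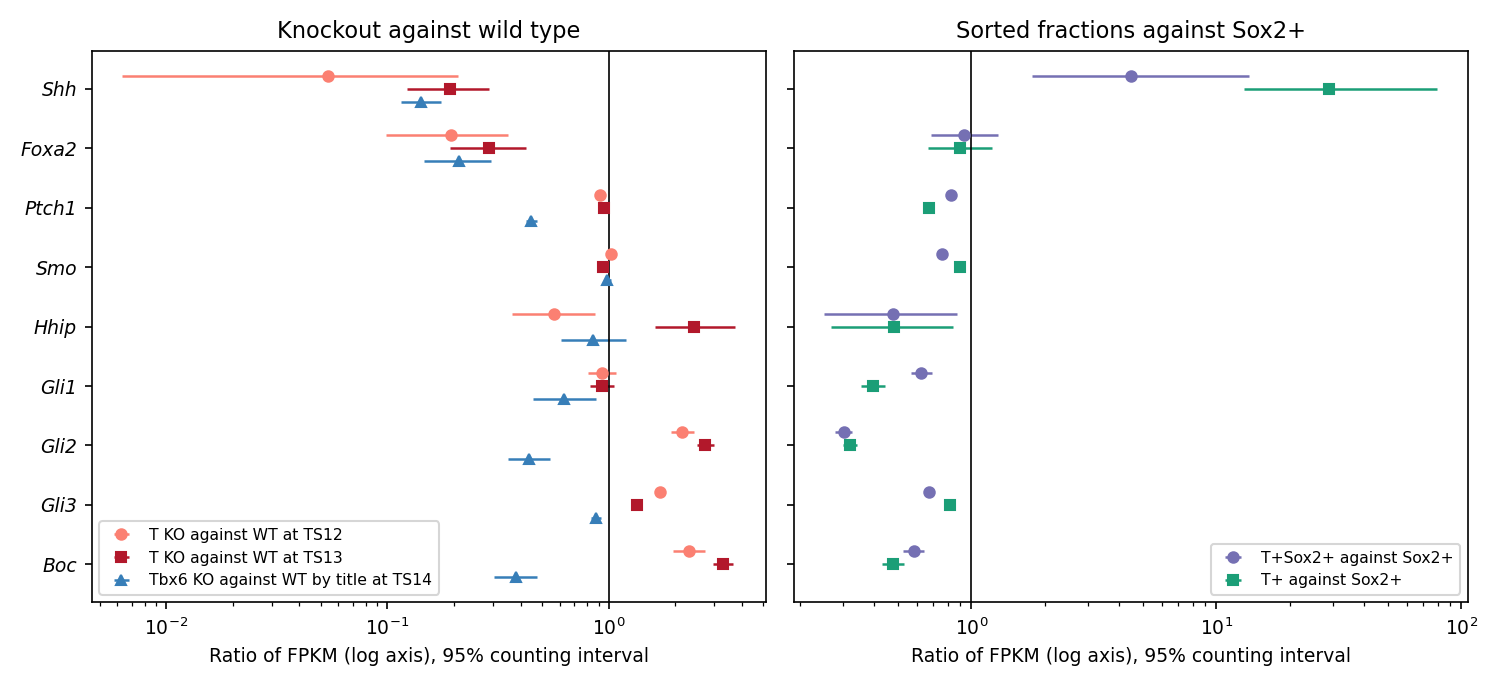
Ratio of recovered fragments, scaled by depth, for each of the 9 genes on a log axis, with 95% exact conditional intervals for counting error only; left, knockout against WT libraries, and right, sorted fractions against Sox2+ cells. Shh and Foxa2 lie left of 1 in all 3 knockout comparisons, and Gli2, Gli3 and Boc lie right of 1 at both stages of the T KO comparison and left of it in the Tbx6+ pair.

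Some neural markers were also higher in T KO. Of the neural list without Sox2, 2 of the 6 genes tested rose in the limma fit, Sox3 by 1.61 (adjusted p = 0.0166) and Ncam1 by 0.80 (adjusted p = 0.0470), beside 53 of 8136 genes. With a minimum of 1 FPKM, 1 of 7 rose (Sox3) and 2 fell, Fabp7 (adjusted p = 0.00984) and Hes5 (adjusted p = 0.0375). Of all 11155 genes tested at that minimum 63 rose and 85 fell. Sox3 was at 2.12 FPKM in WT and 6.24 in T KO at TS12 and at 1.99 and 11.0 at TS13. It was at 0.403, 6.61 and 31.1 FPKM in T+, T+ Sox2+ and Sox2+ cells. The 7 neural markers summed to 37.0 FPKM in WT and 44.9 in T KO at TS12, and to 42.3 and 91.7 at TS13. Fabp7 and Hes5, of the same list, went the other way, at 6.34 and 0.568 FPKM (Fabp7) and 3.65 and 1.36 (Hes5) in WT and T KO at TS12. The part of neural cells in the Gli2, Gli3 and Boc values was not tested.

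Of the other receptors and co-receptors, 0 of 4 tested passed in the limma fit. Lrp2, an endocytic receptor that binds Shh in neural tissue, was nearest, at 2.87 FPKM in WT and 5.61 in T KO at TS12 and at 3.40 and 12.3 at TS13 (log2 difference 1.18, SE 0.253, adjusted p = 0.0516). With a minimum of 1 FPKM, 1 of 5 rose (Lrp2, limma adjusted p = 0.0383), beside 63 of 11155 genes. Cdon, the co-receptor most like Boc, was at 3.20 and 4.73 FPKM at TS12 and 3.59 and 9.23 at TS13. Gas1, a further co-receptor, was at 4.84 and 7.27 FPKM at TS12 and 6.64 and 12.2 at TS13. Each of these 3 co-receptors was therefore higher in T KO than in WT at both stages. Gpc3, a glypican that binds Hedgehog and limits its signal, was lower, at 265 and 176 FPKM at TS12 and 219 and 122 at TS13.

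In the sorted fractions Lrp2 and Cdon stood highest in Sox2+ cells. Lrp2 was at 0.578, 5.91 and 15.4 FPKM in T+, T+ Sox2+ and Sox2+ cells and Cdon at 3.39, 6.11 and 8.12. Gpc3 was at 298, 359 and 156 FPKM. In T+ against Sox2+ cells Lrp2 and Cdon were more than 2-fold lower, with log2 differences of -3.37 and -1.05.

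Genes that act on the ligand were mostly low. Ihh and Dhh, the other Hedgehog ligands, reached at most 0.299 FPKM in the 9 libraries. Scube3, which helps to release the ligand, was at 10.3 FPKM in T+, 3.50 in T+ Sox2+ and 4.68 in Sox2+ cells, and at 6.33 and 2.37 in the Tbx6+ libraries titled WT and KO. Of the 7 ligand and release genes 1 was tested in the limma fit and 0 passed. Behind Smo, 0 of 10 genes of signal transduction passed, with a list median of 0.10 against -0.01 for all genes tested. Sufu, which holds Gli factors back, was at 6.71 FPKM in WT and 11.6 in T KO at TS12 and at 6.92 and 8.11 at TS13.

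Ventral neural tube factors that Hedgehog induces were near 0 in the knockout table, where the 5 genes summed to 0.0469 to 0.225 FPKM per library. Nkx2-9 was the exception in the sort table, at 11.8 FPKM in Sox2+ cells, 0.479 in T+ Sox2+ and 0.0276 in T+ cells. Of 6 Hedgehog-responsive mesoderm factors 1 was tested, and it fell, beside 66 of 8136 genes. That gene, Foxf1, a factor of lateral and splanchnic mesoderm, was at 38.8 FPKM in WT and 17.5 in T KO at TS12 and at 37.0 and 13.7 at TS13 (log2 difference -1.24, SE 0.151, limma adjusted p = 0.00263). It was also at 15.1 and 1.37 FPKM in the Tbx6+ libraries titled WT and KO and at 24.4, 3.29 and 0.851 in T+, T+ Sox2+ and Sox2+ cells. Pax9, of the same list and below 5 FPKM, went the other way in the Tbx6+ pair. It was at 0.0567 FPKM in the library titled WT and 3.73 in that titled KO. Nkx3-2 was listed at 0 in every bulk library.

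Genes with the most similar pattern were sought over the 6 libraries of the knockout table among 2190 genes, by Pearson's r of log2(FPKM + 1). For Gli2 the nearest were Cdc25b (r = 0.997), Phactr4 (0.992) and Mavs (0.990). For Boc they were Pknox2, Dnajc30 and Col18a1 (0.995, 0.994 and 0.989), and for Gli3 Ints9, Ubl7 and Bahcc1 (0.997, 0.996 and 0.996). Shh was nearest to Gen1, Cgnl1 and Ppp3ca (0.982, 0.979 and 0.978), Ptch1 to Hand2, Zfp335 and Krt18 (0.987, 0.986 and 0.985), and Gli1 to Tmem88, Itm2a and Hand1 (0.994, 0.993 and 0.992). Over 6 points and so many genes, values this high describe the ranking only. Smo, Foxa2 and Hhip were not ranked because their level or range was too low.

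In single T+ Sox2+ cells, where T was at 1 FPKM or more in 53 of 53 and Sox2 in 46, detection of the 9 genes ran from most cells to few. Gli3 was at 1 FPKM or more in 51 cells (96.2%, exact Clopper-Pearson 95% interval 87.0 to 99.5) and Smo in 45 (84.9%, 72.4 to 93.3). Gli1 was so in 20 cells (37.7%, 24.8 to 52.1), Gli2 in 19 (35.8%, 23.1 to 50.2), Boc in 11 (20.8%, 10.8 to 34.1) and Ptch1 in 9 (17.0%, 8.07 to 29.8). Foxa2 was found in 5 cells (9.43%, 3.13 to 20.7), Shh in 4 (7.55%, 2.09 to 18.2) and Hhip in 2 (3.77%, 0.460 to 13.0). These intervals cover counting error only, over cells of 1 sample. The shares of all 9 genes come from the same 53 cells, so overlap of their intervals does not compare the genes. Cells had 1 to 7 of the 9 genes, with a median of 3. The depth of each cell is unknown, so a cell without a gene may hold its RNA.

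**Figure D4:**
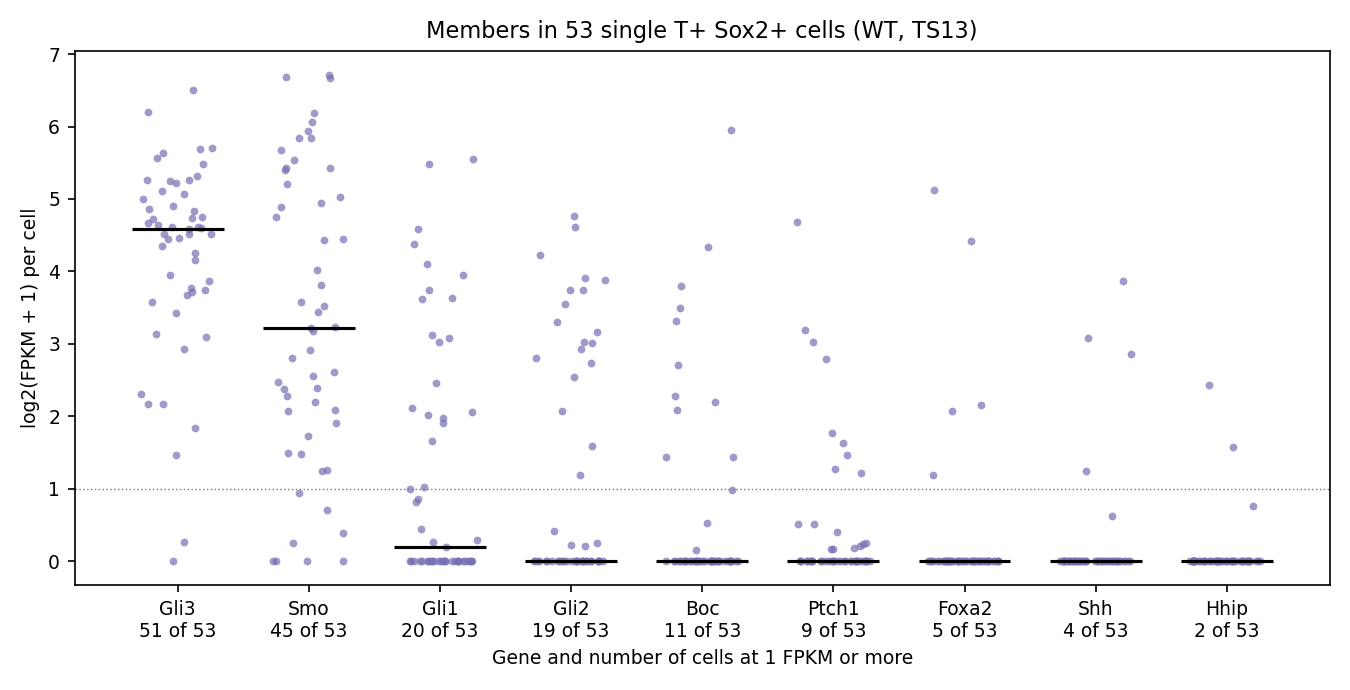
Level of each of the 9 genes in 53 single T+ Sox2+ cells (WT, TS13), as log2(FPKM + 1); each point is 1 cell, spread sideways at random, the black line is the median over cells and the dotted line marks 1 FPKM. Gli3 and Smo are found in most cells (51 and 45), and Shh and Foxa2 in 4 and 5.

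Shh or Foxa2 was at 1 FPKM or more in 8 cells and both in 1. That cell, number 21, had 6.25 FPKM of Shh and 3.44 of Foxa2, with T at 736 FPKM, Sox2 at 0 and Tbx6 at 31.9. The other Shh cells had 13.5 FPKM (cell 16), 7.42 (cell 38) and 1.36 (cell 32), each with T and Sox2. The other Foxa2 cells had 33.8 FPKM (cell 35), 20.4 (cell 22), 3.22 (cell 1) and 1.29 (cell 42), also with both. Noto was listed at 0 in all 8, and the 1 cell with Noto held neither gene at that level. Other markers of the node list were present in some of the 8. Chrd was at 2.88 FPKM in cell 21 and listed at 0 in the rest. Nog was at 1.24 FPKM in cell 21, 14.0 in cell 32, 4.06 in cell 38 and 6.13 in cell 42, and below 1 FPKM in the rest. Over all 53 cells, 5 had Chrd and 23 had Nog at 1 FPKM or more. Of the 8 cells with Shh or Foxa2, 1 had Ptch1 at 1 FPKM or more, cell 1 at 2.42 FPKM, and 3 had Gli1.

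Of the 20 cells with Gli1 and the 9 with Ptch1, 4 had both. Gli1 and Gli2 were both found in 8 cells, and Smo and Gli3 in 43. Over the 36 pairs of the 9 genes, Pearson's r across the 53 cells ran from -0.17 to 0.22 with a median of 0.02, values that share 1 sample and many zeros.

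Ptch1 differed most between bulk and cells. Its mean over the 53 cells was 1.07 FPKM, beside 42.1 FPKM in the bulk T+ Sox2+ library. Smo had 22.2 beside 71.2 FPKM, Gli3 24.3 beside 31.3, Gli1 4.65 beside 6.80, Gli2 3.63 beside 5.45, Boc 2.52 beside 5.64, Foxa2 1.17 beside 1.54 and Shh 0.549 beside 0.354. The stage (TS13 and TS12), the RNA kept (polyadenylated in the cells) and the library kit differ between these 2 tables. The 1394 genes at 30 to 60 FPKM in the bulk library were found at 1 FPKM or more in a median of 86.8% of cells, and 23 of them (1.65%) were found in as few cells as Ptch1 or fewer.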

How the data were processed

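The authors deposited FPKM, a single value for each symbol. Tools named in the submitters' processing notes include TopHat2 2.1.0, Bowtie 1.1.2, Cufflinks 2.2.1, Cuffdiff and Cuffnorm, with build mm10. Annotation, scaling and the role of each tool: not given in the sources used here. Per the labels' protocols the sort table used TotalScript and the knockout table ScriptSeq v2 after depletion of ribosomal RNA. The chromatin samples were not analysed here, and some genes of the lists are not reported here. Differences between libraries were taken only within a table. Single-cell values were set beside the bulk T+ Sox2+ library as a description only. Differences are of log2(FPKM + 1), called at 1 (2-fold) with 5 FPKM or more in 1 library, and understate the change of low genes. Small RNAs, mitochondrial genes, pseudogenes and numbered or clone-named models were left out, leaving 19418 symbols, and counts over all genes also omit T, Sox2 and Tbx6.

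limma 3.58.1 in R 4.3.3 used an empirical Bayes trend. Tested on simulated data of 8136 genes for T KO against WT (noise 0.15, log2), it recovered 99 of 100 genes changed 2-fold and all 100 changed 4-fold, and 15 unchanged genes were called. The simulated noise was the same for every gene. In the real fit the SE was 0.254 for Boc and 0.241 for Gli2, so this recovery does not measure the power for them. FPKM are not counts, and no count model was used. Depth came from FPKM steps, with a relative tolerance of 0.0003. For each of the 9 genes transcript lengths were searched up to its RefSeq span, or up to a fixed limit where the span was longer. The length that gave whole fragments in the most libraries was kept (tolerance 0.01 fragments plus 5e-06 of the number).

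The genes and lists were chosen with earlier results of these data known. The form of the symbol filter, the fragment ratios and their tolerance, the motifs and the range of 30 to 60 FPKM set beside Ptch1 were chosen after values were seen. Named were all 9 genes and, of the other Hedgehog lists, those at least 2-fold apart with 5 FPKM or more (at most 6 a comparison) and any gene of a list of 5 or fewer. Genes of similar pattern were the 3 with the highest Pearson's r over the 6 libraries of the knockout table. Foxa1, Hnf4a, Sufu, Ihh, Dhh, Nkx3-2, Sox3, Ncam1, Fabp7 and Hes5 were named after their values were seen. So were Chrd, Spon1, Pax9 and the single blood and vessel genes. Other pseudocounts, minima, scaling, limma terms, a different control and other cell thresholds were tried.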

Additional observations from a re-analysis of the deposited data

Results flagged for a closer look

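For Hhip the difference of T KO minus WT had opposite signs at the 2 stages, -0.16 on the log2(FPKM + 1) scale at TS12 and 0.18 at TS13. It rests on 65 and 35 fragments in WT and T KO at TS12 and on 37 and 71 at TS13. The counting intervals of the ratio were 0.366 to 0.870 and 1.62 to 3.74. With the WT library of TS13 as control for T KO at TS12 the difference was 0.11. Smo also had opposite signs, 0.0333 at TS12 and -0.0836 at TS13, with counting intervals of the ratio of 0.977 to 1.07 and 0.908 to 0.978. Neither difference between stages was tested, as each group is 1 library.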

How the results depend on the processing

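No paired analysis was possible because every bulk group has 1 library and the cells are 1 sample. Of the counts and shares under the alternatives, 66 stayed within 1.5 times of the reported count or inside the interval of the share and 28 did not, and no called difference changed sign. With a minimum of 20 FPKM the genes 2-fold apart were 0 in T+ Sox2+ against Sox2+, 0 in T+ against Sox2+, 0 in T KO against WT at TS13 and 1 (Ptch1) in the Tbx6+ pair, as fewer genes were tested. With a minimum of 1 FPKM or none, 1 (Shh, lower) was apart in T+ Sox2+ against T+. A pseudocount of 5 gave 1 in T+ against Sox2+, 0 at TS13 and 0 in the Tbx6+ pair, and one of 0.1 gave 2 (Gli2 and Boc, higher) at TS12. In the limma fit the genes called were 1 with a pseudocount of 0.1 (Boc), 2 with a minimum of 1 FPKM (Gli2 and Boc), 2 with no trend (the same pair) and 5 with no minimum (Gli2, Gli3 and Boc rose, Shh and Foxa2 fell). They were 0 in all other settings. With all 4 libraries and no stage term, Gli2 was at 1.04 (limma adjusted p = 0.259) and Boc at 1.18 (limma adjusted p = 0.376). The fit without the WT library of TS12 had no stage term either, and in it Gli2 was at 1.06 and Boc at 1.03. The cause of these changes was not tested. Over all genes 53 rose and 66 fell, against 19 and 86 under upper-quartile scaling and 230 and 339 with no minimum. The numbers were 7 and 12 with a minimum of 20 FPKM and 3 and 9 with no stage term. At 5 FPKM or more the share of cells was 7.55% for Ptch1, 58.5% for Smo, 0% for Hhip, 22.6% for Gli1 and 86.8% for Gli3. At 10 FPKM it was 1.89% for Shh, 1.89% for Ptch1, 45.3% for Smo, 0% for Hhip, 17.0% for Gli1, 15.1% for Gli2, 79.2% for Gli3 and 7.55% for Boc, and Ptch1 was above 0 in 33.96%.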

Other observations

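Some other pathway genes were, like Ptch1, present in the bulk T+ Sox2+ library and rare in the cells; they were picked after their values were seen. Gpr161, a receptor of the cilium that restrains Hedgehog signalling, was at 4.40 FPKM in bulk and in 0 of 53 cells, which allows a share of up to 5.66% of cells in which it would be detected (3 cells of 53, counting error only). Scube3 was at 3.50 FPKM and reached 1 FPKM in 0 cells, with 1 cell above 0. Ntn1 was at 6.75 FPKM and in 3 cells. In contrast Gas1, at 12.2 FPKM in bulk, was in 25 cells, Evc2, at 8.45 FPKM, in 23, and Kif7, at 2.44 FPKM, in 19. Gpc3 and the kinase gene Csnk1a1 were in 53 of 53.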
